A study of Mus musculus with 6 samples.

Results

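The SOX genes encode transcription factors that bind DNA through a high-mobility-group (HMG) box, and 10 of them were followed here: Sox2, Sox4, Sox5, Sox6, Sox8, Sox9, Sox11, Sox12, Sox13 and Sox18. They are 10 of the 20 SOX genes of the mouse and 10 of the 56953 genes of the expression table, found by matching each Ensembl identifier to the GENCODE annotation. The set was drawn up because Sox11 was lost in the mutant cells, so the difference between the groups had already chosen it, and the members' own values are a description: no p-value is given for them, and which of them passed a threshold is counted but not used as support. The data were bulk RNA sequencing of mouse embryonic fibroblasts (MEFs), connective tissue cells cultured from embryos and grown here in serum-containing medium without further treatment, with 3 libraries labelled WT (wild-type) and 3 labelled GαqKO. The methods describe the mutant cells as lacking both Gαq and Gα11, the alpha subunits that couple receptors to phospholipase C beta, and both kinds of MEF came from the same laboratory. The sources used here give neither the strain nor the age of the embryos, nor how many embryos or clones stand behind each culture, so the genotype and any other difference between the cultures cannot be told apart. The methods call the 3 libraries of a group biological replicates, and where they share a culture the errors below cover only the spread between those libraries.

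SOX proteins are sorted into groups by the likeness of their HMG boxes. SoxC (Sox4, Sox11 and Sox12) proteins are activators of progenitor and early neuronal or mesenchymal genes, and the SoxE protein Sox9 acts with the SoxD proteins Sox5 and Sox6 in cartilage formation. Sox8 is a further SoxE member with roles in testis and neural crest, Sox13 a further SoxD member, Sox18 (SoxF) acts in blood and lymphatic vessels, and Sox2 (SoxB1) keeps stem cells and neural progenitors undifferentiated.

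The coding sequence of the HMG box shows how alike the members are, which bears on whether their reads can be told apart. Below is the stretch of 210 bases (70 codons) of Sox11, Sox4 and Sox9, abundant members of the SoxC and SoxE groups, read 5′ to 3′ from the GENCODE release 39 transcripts on GRCm39. Capitals mark the bases that differ from Sox11, whose own stretch (residues 49 to 118 of 395) is therefore all in lower case.
Sox11: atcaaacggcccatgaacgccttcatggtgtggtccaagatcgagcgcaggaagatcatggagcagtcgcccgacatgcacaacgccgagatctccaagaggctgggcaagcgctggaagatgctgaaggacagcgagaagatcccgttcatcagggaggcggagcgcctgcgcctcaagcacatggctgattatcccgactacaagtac
Sox4: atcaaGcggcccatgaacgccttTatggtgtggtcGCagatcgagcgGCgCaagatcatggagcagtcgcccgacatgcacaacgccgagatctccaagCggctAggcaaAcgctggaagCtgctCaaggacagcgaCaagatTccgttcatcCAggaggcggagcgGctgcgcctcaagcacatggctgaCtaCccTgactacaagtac
Sox9: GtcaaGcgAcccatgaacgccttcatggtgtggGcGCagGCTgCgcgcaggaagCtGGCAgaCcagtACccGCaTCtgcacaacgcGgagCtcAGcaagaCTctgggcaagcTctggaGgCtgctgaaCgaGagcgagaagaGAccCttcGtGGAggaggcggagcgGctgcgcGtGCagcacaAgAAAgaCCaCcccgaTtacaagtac

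Sox4 differed from Sox11 at 20 of these bases, an identity of 90.5%. Sox9 differed at 52 bases (75.2%), and the SoxB1, SoxD and SoxF members and Sox8 were 59.5% to 68.1% identical to Sox11. In residues, Sox4 matched Sox11 at 94.3%, against 60.0% to 64.3% for the SoxB1, SoxD, SoxE and SoxF members. The SoxD boxes were as close to each other, at 92.9% to 94.3% of residues, and the boxes of Sox8 and Sox9 at 98.6%. Over whole transcripts the longest run of bases that 2 members shared exactly was 48, between Sox4 and Sox11, while the reads were 150 bases long at each end. No pair of members therefore held an exact run as long as a read.

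The targeted genes were checked first. Gna11, which encodes Gα11, fell from 2147.9 ± 29.0 normalized counts (mean ± SD, n = 3 here and below) in WT to 451.6 ± 28.7 in GαqKO (log2 fold change -2.25, limma adjusted p = 9.16e-13), but Gnaq, which encodes Gαq, was at 1690.8 ± 48.5 and 1926.3 ± 36.0 (0.19, adjusted p = 0.00212) and so was not lower in the libraries labelled GαqKO. These values are RNA, counted over the whole gene. For protein, the paper reports a lack of Gαq in its GαqKO MEFs by Western blot and immunofluorescence. Which exons the knockout removed is not given in the sources used here. A normalized count is a gene's read count divided by a size factor of its library, with library totals between 11392429 and 11483486. Log2 fold changes are GαqKO minus WT on the log2(normalized count + 1) scale, on which the differences of low genes are compressed. They were fitted with limma over 14096 genes, each reaching 10 normalized counts in 3 or more libraries. A gene under 10 in every library of a group passed this filter through the other group alone, and its adjusted p is a description. Among those named below are Sox2ot, Cmpk2, Rnf144a, Kcnj2 and Thy1 (through GαqKO) and Zcchc3, Col11a1, Erbb3, Pax6 and Nanog (through WT). A gene passed the study's thresholds with an adjusted p under 0.05 and a log2 fold change over 1 or under -1. Fitted values of genes with a group at or under 3 counts per library, taken as the floor of detection, depend on the added 1 count.

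Among the members, Sox11 was present in WT and listed at 0 in the mutant, Sox13 and Sox8 were low in WT and near 0 in the mutant, Sox4 and Sox12 were lower but still abundant, and Sox9 was higher. Of the 8 members tested, 3 were lower past both thresholds and 0 higher, where 10.5% and 10.2% of all genes tested were, and nothing is read from that count because the members were chosen on this contrast. With differences of any size counted, 5 were lower and 1 higher by adjusted p, where 34.1% and 31.8% of all genes tested were. Sox11, Sox13 and Sox8 passed the filter on low counts through the WT libraries alone. Sox2 and Sox18 did not pass it. In bulk RNA, fewer cells of a type and less RNA per cell cannot be told apart.

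**Figure D1:**
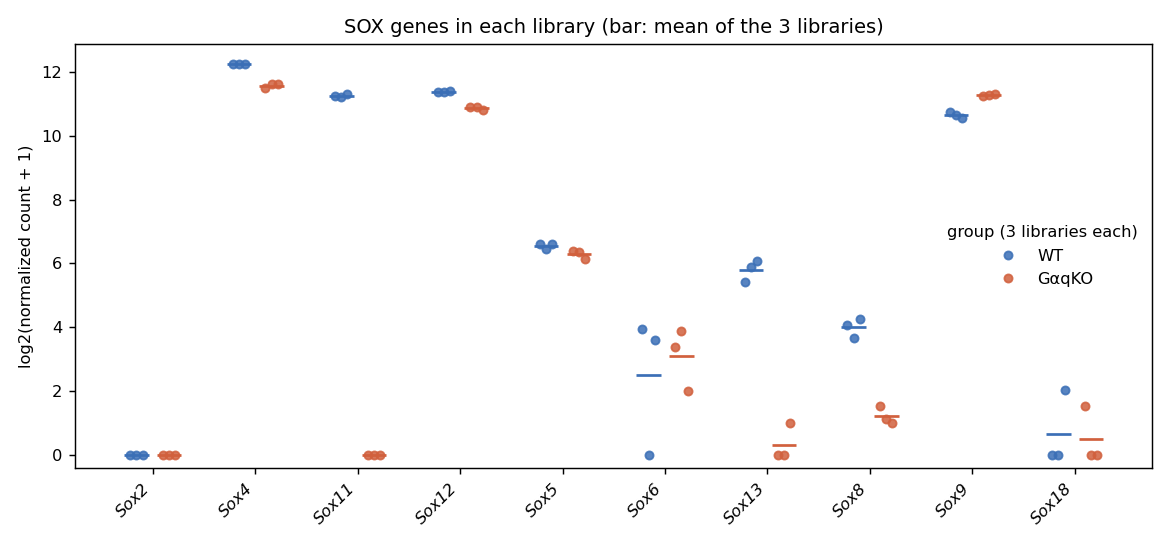
Level of the 10 SOX genes in each of the 6 libraries, as log2(normalized count + 1) on the vertical axis, by gene on the horizontal axis; points are libraries (blue WT, red GαqKO) and bars the mean of 3. The 3 red points of Sox11 lie at 0 while its WT points stand beside those of Sox12, Sox9 is the abundant gene whose red points are above the blue, and Sox2 is at 0 in all 6 libraries.

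Sox11 (ENSMUSG00000063632.7) is a gene of a single exon of 8311 bases on the minus strand at chr12:27384263-27392573 (GRCm39), and it overlapped no other gene of the table. Its normalized counts were 2416.3, 2338.2 and 2518.2 in the WT libraries and 0, 0 and 0 in the GαqKO libraries. All 3 WT libraries were high and within a narrow range, and no read was counted in any mutant library. Against the floor of 3 counts per library, the mean WT level of 2424.2 ± 90.2 was at least 808-fold lower in GαqKO. Ranked by mean WT normalized count, not divided by gene length, Sox11 was the 1st of 71 tested genes listed at 0 in every GαqKO library. Of these, 3 had a WT mean over 1000. Allowing 3 counts or fewer in each mutant library widened that group to 232 genes, 8 of them over 1000, among which Sox11 stood 2nd. Per kilobase of exon the order differs: Zcchc3, also at 0 in GαqKO, had a WT mean of 1004.1 over 3073 exon bases.

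The other SoxC genes stayed on. Sox4 (ENSMUSG00000076431.5, chr13:29132902-29137696, minus strand) had 4813.7, 4876.5 and 4843.9 normalized counts in WT and 2878.1, 3099.9 and 3102.7 in GαqKO. The ranges did not overlap, and the mutant mean of 3026.9 ± 128.9 was 0.625 of the WT mean of 4844.7 ± 31.4, a log2 difference of -0.68 (SE 0.043). Sox12 (ENSMUSG00000051817.9, chr2:152235531-152239983, minus strand) had 2654.3, 2617.0 and 2671.9 in WT and 1883.7, 1899.7 and 1779.4 in GαqKO. Its mutant libraries were likewise all below the WT libraries, at 0.7 of their mean (1854.3 ± 65.3 against 2647.7 ± 28.0; log2 difference -0.51, SE 0.044). The 3 genes of the group were thus all lower in the mutant, and their differences were of unlike size.

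Sox9 (ENSMUSG00000000567.6, chr11:112673009-112678586, plus strand), the regulator of chondrocyte identity, had 1701.0, 1599.0 and 1506.4 normalized counts in WT and 2425.5, 2470.9 and 2495.4 in GαqKO. Every mutant library was above every WT library, and the mean was 1.54 times as high (2463.9 ± 35.5 against 1602.1 ± 97.3; log2 difference 0.62, SE 0.050). Sox8 (ENSMUSG00000024176.11, chr17:25784634-25789726, minus strand), the close SoxE relative, went the other way at a far lower level, with 15.7, 11.7 and 18.3 in WT and 1.9, 1.2 and 1.0 in GαqKO. The groups did not overlap, and each mutant library was under the floor. The summed and rounded counts were 46 in WT and 4 in GαqKO.

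All 3 SoxD genes were scarce, and they differed in pattern. Sox13 (ENSMUSG00000070643.12, chr1:133310039-133352222, minus strand), known from T cell and vascular development, had 41.8, 58.3 and 66.2 normalized counts in WT and 0, 0 and 1.0 in GαqKO. The groups did not overlap, and the summed and rounded counts of 166 and 1 gave a ratio of 166, for which counting error alone allows 29.4 to 6.6e+03 (exact 95% interval); that range describes how little 1 count fixes the ratio and is no test. Sox5 (ENSMUSG00000041540.17, chr6:143774151-144727703, minus strand) had 96.1, 87.4 and 96.7 in WT and 83.6, 80.9 and 69.5 in GαqKO. Its mutant libraries were all below the WT libraries, by a log2 difference of -0.26 (SE 0.15), but Sox5 did not pass the adjusted p threshold. Sox6 (ENSMUSG00000051910.14, chr7:115070106-115638860, minus strand) had 14.6, 0.0 and 11.2 in WT and 9.4, 13.9 and 3.0 in GαqKO. The groups overlapped, and WT replicate 2 alone, listed at 0, set the sign of the fitted difference, which was 0.57 (SE 0.87) with all libraries and -0.69 without that library.

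Sox18 (ENSMUSG00000046470.6, chr2:181311629-181313438, minus strand) had 0, 0 and 3.1 normalized counts in WT and 1.9, 0 and 0 in GαqKO, which is the worth of 3 reads or fewer in every library. Sox2 (ENSMUSG00000074637.8, chr3:34704554-34706610, plus strand) was listed at 0 in all 6 libraries. A difference of Sox18 was not detectable at this depth, and the position of Sox2 inside another gene, described below, bears on its count.

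Of the remaining 10 SOX genes of the genome, 0 passed the filter, 7 were at or under the floor in every library, and Sox1, Sox3, Sox14 and Sry were listed at 0 throughout. All exon bases of Sox1 and Sox14 and 79.1% of those of Sox3 lie inside other genes, and the part of that overlap in their counts was not tested. Sox7, Sox10 and Sox17 reached at most 1.0 normalized counts, and Sox30 at most 4.1. Sox15, a SOX gene of muscle progenitors and trophoblast, had 6.3, 8.7 and 6.1 normalized counts in WT and 3.8, 1.2 and 3.0 in GαqKO. Sox21, which opposes SoxB1 factors in neural progenitors, had 1.0, 4.9 and 9.2 in WT and was listed at 0 in each GαqKO library. Neither gene was tested.

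Levels of different genes can be compared only per length, so the normalized counts were divided by the kilobases (kb) of exon of each gene. In WT the order was Sox4 (1010 ± 6.55 normalized counts per kb), Sox12 (594.6 ± 6.29), Sox9 (383.6 ± 23.3) and Sox11 (291.7 ± 10.9), and the ranges of these 4 genes over the libraries did not overlap. Far below them came Sox13 at 10.5 ± 2.37, then Sox5 at 6.02 ± 0.333 and Sox15 at 5.99 ± 1.26, whose ranges overlapped, and Sox8 at 2.99 ± 0.659. In GαqKO the order changed: Sox9, at 590.0 ± 8.50 per kb, stood above Sox12 at 416.4 ± 14.7 and just below Sox4 at 631.3 ± 26.9. The lowest Sox4 library, at 600.2, was close to the highest Sox9 library, at 597.6. Below these were Sox5 (5.02 ± 0.482) and Sox15 (2.25 ± 1.14), and the ranges of Sox6 (0.54 ± 0.336) and Sox8 (0.265 ± 0.0915) overlapped.

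As shares of the summed level of all 20 SOX genes per kb, Sox4 made up 43.8% ± 0.53 in WT and 38.3% ± 1 in GαqKO, and Sox12 25.7% ± 0.22 and 25.3% ± 1. Sox11 made up 12.6% ± 0.45 in WT and none in GαqKO, while Sox9 went from 16.6% ± 0.96 to 35.8% ± 0.41. The share of Sox12 thus stayed within the spread of the libraries. The summed level was 2309 ± 13.0 per kb in WT and 1647 ± 29.0 in GαqKO, or 71.3%. The SoxC sum was at 55.2% of WT (1897 ± 14.5 against 1048 ± 24.9), and leaving out Sox11 it was still at 65.3% (1605 ± 5.13 against 1048 ± 24.9). The SoxE sum was at 153% of WT (386.7 ± 23.2 against 590.3 ± 8.41), nearly all of it Sox9, and the SoxD sum at 32.9% (17.1 ± 2.26 against 5.63 ± 0.673).

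**Figure D2:**
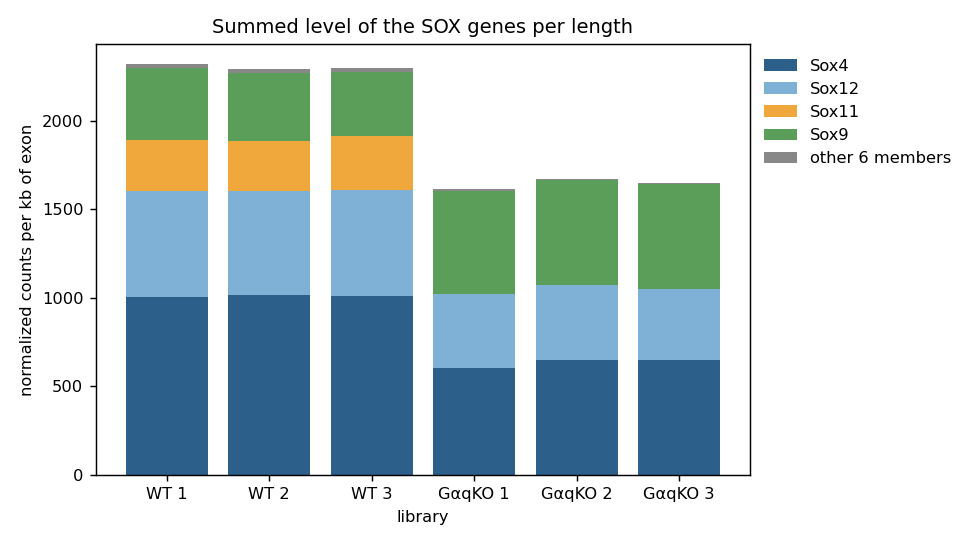
Stacked bars of the SOX level in each of the 6 libraries, in normalized counts per kb of exon on the vertical axis from 0. The Sox11 segment is missing from the 3 GαqKO bars, the Sox4 and Sox12 segments are shorter there, the Sox9 segment is longer, and the other 6 members are barely visible.

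The overlap of a gene with others can change what is counted for it, and the strand setting of the counting is not given in the sources used here. All exon bases of Sox4 lay inside the antisense gene A330102I10Rik, and all those of Sox9 inside the antisense gene BC006965, so reads of these pairs cannot be told apart without strand. Sox11, Sox12, Sox8 and Sox18 overlapped no gene. Sox2 lies within the span of the long noncoding RNA Sox2ot on the same strand and shares no exon with it. Of 169 coding genes placed like that, 143 (84.6%) were listed at 0 in all libraries, against 2901 of 11516 (25.2%) that overlap no gene. The share was alike, 312 of 371 (84.1%), for genes inside a gene of the opposite strand only with no exon shared. For genes placed like Sox4 and Sox9, which share exons with an opposite-strand gene around them, it was 365 of 558 (65.4%). Whether its position set the count of 0 for Sox2 was not tested.

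Sox2ot itself (ENSMUSG00000105265.7, chr3:34158419-34789489, plus strand), the host transcript of Sox2, had 3.1, 0.0 and 3.1 normalized counts in WT and 1412.3, 1277.6 and 1396.8 in GαqKO. It rose from at or near the floor to 1362.2 ± 73.7 (fitted log2 fold change 9.06, SE 0.41, limma adjusted p = 2.62e-10), and over the alternative settings the fitted value ran from 7.63 to 9.51. Of its exon bases, 25.7% lay inside other genes. Among the other transcripts named after SOX genes, Sox5os1 to Sox5os5, Sox5it and Sox6os, which lie inside Sox5 or Sox6, were listed at 0 in all libraries. Sox1ot and Sox21os1 reached at most 3.5 and 2.3 normalized counts.

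The surroundings of Sox11 held few active genes. Within 1 Mb on either side the annotation has 22 genes, 4 of them coding, and besides Sox11 the genes tested were Cmpk2 and Rnf144a. Cmpk2, a mitochondrial nucleotide kinase gene induced by interferon, had 0, 1.0 and 0 normalized counts in WT and 19.7, 15.0 and 16.1 in GαqKO (fitted log2 fold change 3.83, SE 0.52, adjusted p = 1.92e-05). Rnf144a, a ubiquitin ligase gene, had 3.1, 0 and 0 in WT and 22.5, 13.9 and 10.1 in GαqKO (3.29, SE 0.63, adjusted p = 0.000403). Both rose, at low levels, on the side of lower coordinates. Of the 18 genes tested within 3 Mb, Id2, which encodes an inhibitor of basic helix-loop-helix factors, fell from 1123.3 to 215.7 normalized counts (-2.38, adjusted p = 6.81e-11), and the rest besides these 3 and Sox11 did not pass both thresholds.

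**Figure D3:**
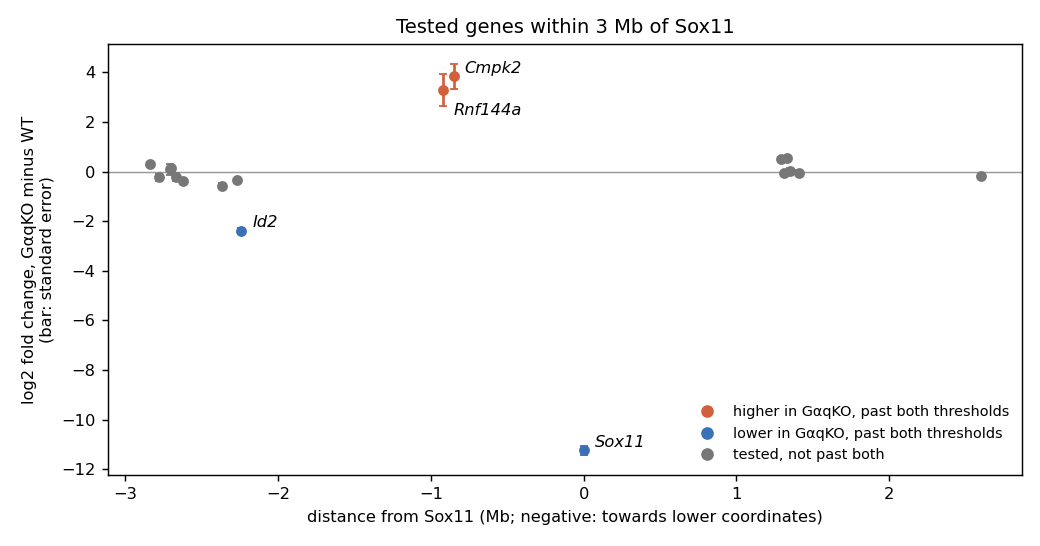
Log2 fold change (GαqKO minus WT) of the 18 genes tested within 3 Mb of Sox11, against their distance from it in Mb; error bars are standard errors and colours mark genes past both thresholds. Sox11 lies alone at the bottom, Cmpk2 and Rnf144a are the raised points nearest to it, and Id2 is the other lowered gene.

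The nearest coding genes on either side of the 10 members made 20 neighbours, of which 14 were tested, 3 rose past both thresholds and 2 fell. Of all genes tested, 10.2% rose and 10.5% fell past both. Zcchc3, a nucleic acid sensor gene 13.9 kb from Sox12, had 1078.6, 1027.8 and 905.9 normalized counts in WT and was listed at 0 in each GαqKO library, at least 335-fold lower (limma adjusted p = 3.51e-13), while Sox12 itself kept 0.7 of its WT level. Kcnj2, a potassium channel gene that is the nearest coding gene to Sox9 on the left at 1705 kb, rose from 2.1, 0 and 0 to 1588.8, 1595.6 and 1607.2 (fitted log2 fold change 10.10, SE 0.35, adjusted p = 1.91e-11). Tcea2, an elongation factor gene 8.38 kb from Sox18, rose from 123.3 ± 15.2 to 473.8 ± 28.4 (1.94, SE 0.11, adjusted p = 1.79e-09). Plekha7, a junction protein gene 83.9 kb from Sox6, fell from 34.7 ± 5.1 to 13.8 ± 1.1 (-1.27, SE 0.27, adjusted p = 0.000913), and Cmpk2 was the remaining one. The other tested neighbours, Dnajc19 and Atp11b of Sox2, Cdkal1 of Sox4, Etnk1 and Bcat1 of Sox5, Lmf1 of Sox8, Slc39a11 of Sox9, Snrpe of Sox13 and Gm29797 of Sox18, lay between -0.36 and 0.85 in log2 fold change. Prl5a1, Dcdc2c, Nrsn2, Insc, Ren1 and Sstr5 were not tested.

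The genes most like Sox11 over the 6 libraries, by the mean absolute difference of log2(normalized count + 1), were Peg10 (0.19), Ddx3y (0.51), Pcdh17 (0.61), Zcchc3 (0.64) and Bnc1 (0.84). Peg10, a paternally expressed gene derived from a retrotransposon, went from 2387.9 ± 161.3 to 0.3 ± 0.6 normalized counts. The protocadherin gene Pcdh17 went from 3542.1 ± 413.2 to 0.7 ± 0.6, and Bnc1, a zinc finger gene, from 756.7 ± 26.2 to 0. Ddx3y, an RNA helicase gene of the Y chromosome, went from 1197.2 ± 52.3 to 0 in each mutant library. The cultures thus differed in a Y-linked transcript as well as in Sox11, and what part the origin of the cultures had in the SOX values was not tested.

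Beyond the SOX genes, other genes of the HMG-box superfamily were listed too. They are not compared with Sox11, whose loss had chosen the set. All 7 listed were tested, and 0 rose and 2 fell past both thresholds (median log2 fold change 0.21, against -0.012 over all genes tested). Beside this list and those below, 10.2% of all genes tested rose and 10.5% fell past both thresholds. By adjusted p at any size, 31.8% rose and 34.1% fell. Both that fell encode Wnt pathway factors: Tcf7 had 252.7, 292.4 and 281.9 normalized counts in WT and 73.2, 65.9 and 83.6 in GαqKO (-1.88, SE 0.13, adjusted p = 1.87e-08), and Lef1 went from 54.3 ± 3.4 to 18.6 ± 4.1 (-1.52, SE 0.25, adjusted p = 9.59e-05). By adjusted p alone the related Tcf7l1 fell by 0.72 on the log2 scale, and Tcf7l2 (0.37), Bbx (0.35) and Cic (0.21) rose.

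Of 5 genes known as targets of SoxC proteins, 4 were tested: 1 fell past both thresholds, 2 more fell by adjusted p alone, and 0 rose (median -0.64). Of all genes tested, 34.1% fell by adjusted p at any size. Tubb3, the neuronal class III beta-tubulin that fell, had 428.1, 425.5 and 365.4 normalized counts in WT and 64.8, 70.5 and 47.3 in GαqKO (limma log2 fold change -2.73, SE 0.15, adjusted p = 1.7e-09). Tead2, a transcription factor of the Hippo pathway, went from 1508.3 ± 60.2 to 810.4 ± 21.1 (-0.90, SE 0.052, adjusted p = 3.23e-09). Ezh2, the methyltransferase of Polycomb complex PRC2, went from 752.8 ± 11.7 to 573.0 ± 24.8 (-0.39, SE 0.059, adjusted p = 4.86e-05). The neuronal gene Map2 was at 0.13 (adjusted p = 0.139), and Dcx, at or under 3.1 normalized counts, was not tested.

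The targets of Sox9 and the SoxD proteins in cartilage were mostly silent. Of 13 listed genes, 9 were not tested, among them Col2a1, the defining collagen of cartilage, at 5.8 normalized counts or fewer, and Acan, which encodes aggrecan, at 0.9 or fewer. Of the 4 tested, 1 rose and 2 fell past both thresholds (median -1.17). Col11a1, a fibrillar collagen of cartilage, had 429.2, 394.4 and 481.4 in WT and 2.8, 3.5 and 3.0 in GαqKO (-6.73, SE 0.21, adjusted p = 5.44e-12). Its partner Col11a2 went from 43.2 ± 9.0 to 13.1 ± 1.9 (-1.64, SE 0.27, adjusted p = 0.000124). Col9a3 went from 21.8 ± 3.0 to 47.2 ± 9.1 (1.07, SE 0.25, adjusted p = 0.00164), and its log2 fold change was 0.93, short of the fold threshold, without GαqKO replicate 2. Sox9 was thus higher in libraries where Col2a1 and Acan were near 0 and the type XI collagens were lower.

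Among 6 regulators of skeletal development, 3 were tested and 0 passed both thresholds. Runx3 fell by adjusted p alone, from 1654.1 ± 43.5 to 1112.1 ± 41.5 (-0.57, SE 0.049, adjusted p = 1.99e-07), and Runx1 and Runx2 were at -0.04 (adjusted p = 0.544) and 0.04 (adjusted p = 0.574). Sp7, Nkx3-2 and Mef2c were not tested. Mef2c, a myocyte and chondrocyte factor, had 11.5, 9.7 and 14.2 normalized counts in WT and 0.0, 1.2 and 0.0 in GαqKO, ranges that did not overlap.

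Markers of other cell types in which SOX genes act were counted as well, and their part in the SOX values was not tested. Of 8 targets of SoxF and endothelial markers, 1 was tested and 0 passed (Pecam1, -0.13, adjusted p = 0.786). Their summed level, 14.6 to 27.1 normalized counts in WT and 18.8 to 39.3 in GαqKO, was near the floor like Sox18, and Cldn5, Tie1 and Prox1 were at or under it in each library. Of 8 markers of neural crest, glia and melanocytes, 5 were tested, 2 rose and 1 fell past both thresholds (median 0.59), and the summed level went from 568.0 to 611.0 in WT to 1015.1 to 1031.2 in GαqKO. Erbb3, the neuregulin receptor of glial precursors, had 284.0, 259.4 and 248.4 in WT and 1.9, 3.5 and 5.0 in GαqKO (-5.95, SE 0.28, adjusted p = 3.7e-10). Tfap2a, a neural crest transcription factor, rose from 16.1 ± 7.5 to 399.1 ± 5.0 (4.66, SE 0.27, adjusted p = 3.18e-09), and Mitf, the melanocyte regulator, from 53.7 ± 10.3 to 267.4 ± 25.2 (2.31, SE 0.16, adjusted p = 2.06e-08). Foxd3, a defining gene of early neural crest, was listed at 0 in every library, but 86.7% of its exon bases lie inside other genes, and the part of that overlap was not tested.

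Of 7 markers of pluripotent cells and neural progenitors, the cells in which Sox2 is best known, 4 were tested, 3 fell past both thresholds and 0 rose (median -2.19), and the summed level was 7527.6 to 8045.1 normalized counts in WT and 1121.6 to 1166.1 in GαqKO. Nes, which encodes the intermediate filament nestin, fell from 7439.2 ± 281.6 to 899.4 ± 27.8 (-3.05, SE 0.046, adjusted p = 7.49e-15), and made up most of that sum. Pax6, a regulator of neural progenitors and the eye, had 61.6, 62.2 and 63.1 in WT and 3.8, 2.3 and 5.0 in GαqKO (-3.79, SE 0.32, adjusted p = 1.81e-07). Nanog, at 17.8 ± 3.4 and 6.5 ± 1.3, was the remaining one (-1.32, SE 0.36, adjusted p = 0.00517), and it did not pass both thresholds with a pseudocount of 5 (-0.98) or with DESeq2 on 5 libraries. Pou5f1 and Lin28a, defining genes of pluripotent cells, reached at most 1.0 and 1.2.

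**Figure D4:**
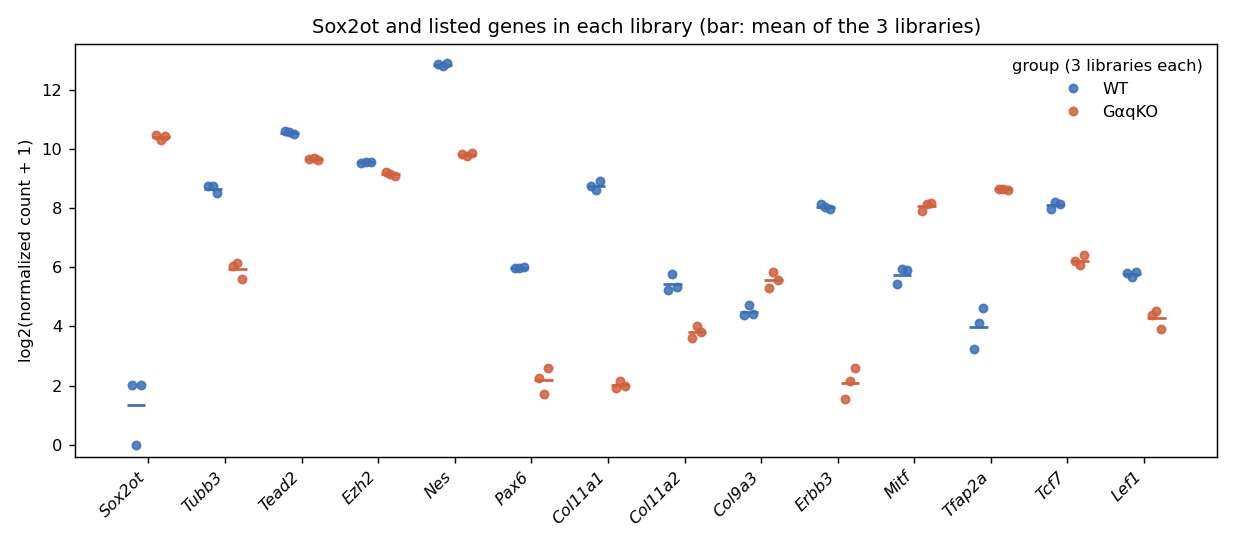
Level of Sox2ot and 13 genes from the lists in each of the 6 libraries, as log2(normalized count + 1) on the vertical axis; points are libraries (blue WT, red GαqKO) and bars the mean of 3. Sox2ot and Tfap2a lie high in GαqKO and low in WT, and Col11a1, Erbb3 and Pax6 show the opposite.

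The fibroblast label was checked on 12 markers, of which 11 were tested, 4 rose and 1 fell past both thresholds (median 0.23), with a summed level of 88605.5 to 94443.7 normalized counts in WT and 77323.9 to 80436.1 in GαqKO. Those that rose were Pdgfra (19.6 ± 2.2 to 2319.7 ± 42.0), Dcn (32.1 ± 3.0 to 1662.8 ± 53.8), Prrx1 (3572.0 ± 45.4 to 13374.4 ± 304.1) and Thy1 (0.7 ± 1.2 to 64.9 ± 10.1) (limma adjusted p at most 2.2e-07), and Col1a1 fell (16671.0 ± 1167.8 to 5774.5 ± 272.1, adjusted p = 2.11e-11). By adjusted p alone Twist1 (0.93) and Pdgfrb (0.23) also rose, and Fn1 (-0.73), Col1a2 (-0.36), Vim (-0.32) and Col3a1 (-0.18) also fell. Thy1 and Lum were at or under the floor in every WT library, so part of the usual fibroblast set was not detected in WT at this depth. Lum was scarce in GαqKO as well, at 3.8, 1.2 and 4.0, and was not tested. Of 4 epithelial markers, 1 was tested and fell, namely Cdh1 (238.2 ± 3.1 to 8.0 ± 2.7, log2 fold change -4.79, adjusted p = 8.62e-10), with a summed level of 255.5 to 283.7 in WT and 9.1 to 20.8 in GαqKO. Of 4 macrophage and leukocyte markers, 2 were tested and 0 passed both thresholds, with a summed level of 104.4 to 115.0 in WT and 69.5 to 102.9 in GαqKO. The fibroblast and epithelial markers thus differed between the same libraries as Sox11, Sox13 and Sox8, and their part in those values was not tested.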

How the data were processed

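RNA from WT and GαqKO MEFs was sequenced after poly-A selection with a stranded kit. Alignment to GRCm39 by the authors used Rbowtie2, and featureCounts assigned the reads to the genes of GENCODE release 32. What they deposited after DESeq2 is a signal per gene, the count divided by a size factor. The strand setting and tool versions are not given in the sources used here. Names, coordinates, exon lengths and transcripts came from GENCODE release 39, which matched 56310 of 56953 identifiers.

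The main test was limma with a trended prior variance, fitted to log2(normalized count + 1), and p-values were adjusted after Benjamini and Hochberg over all genes that reached 10 normalized counts in 3 or more libraries. Recovered reads numbered 9853000 to 12229175 in 5 libraries, where 100.0% of the values above 0 came out as whole reads (tolerance 0.02). The values of GαqKO replicate 3 were 100.0% whole as well, but its reads were not accepted as recovered and were not used. edgeR's quasi-likelihood test and DESeq2 were run on those 5 libraries as alternatives. Replicates differed by more than counting noise (chi-square per gene 2.44 to 5.5). Floors and intervals cover counting error only. On simulated data with 200 changed genes for this comparison, limma recovered 199 with 1 false call among 13988 genes. There edgeR recovered 198 with 1 false call among 14093, and DESeq2 194 with 0 among 24670. In the measured libraries 4479 genes rose and 4800 fell by limma adjusted p at any size. Recovery with that many changed genes, with smaller changes, or of genes absent from a group was not tested.

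The members and the gene lists were chosen with earlier results of these data known. The text names all SOX genes and Sox-named transcripts, the nearest coding gene on each side of each member, tested genes within 1 Mb of Sox11, the 5 profiles most like Sox11 (leaving out Gm numbers and Rik names), and from each list up to 4 genes with the largest change past the thresholds and a mean of at least 20 normalized counts in a group, with defining markers near 0. Id2, Nanog, Col1a1, the genes past the adjusted p alone and those not past it were named after their values were seen. The HMG stretch is the 70-codon window of Sox11 whose translation was best matched, without gaps, in the other 9 members. Stretches were printed for 3 members, and some comparisons of them are not reported here. The alternatives were other pseudocounts, filters, scalings and tools, a replicate block and each library left out in turn, where the filter asked for 2 libraries. R 4.3.3, limma 3.58.1, edgeR 4.0.16, DESeq2 1.42.0 and Python 3.11.15 were used.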

Additional observations from a re-analysis of the deposited data

How the results depend on the processing

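A filter of 10 normalized counts in each of the 6 libraries, which drops any gene absent from a group, left 12054 genes: 831 rose and 765 fell past both thresholds (1432 and 1486 in the main test), 0 SOX members were lower in place of 3, and 6 listed genes in place of 11. With no filter (26091 genes), 17 listed genes fell. The other settings kept 0 members higher and 3 lower past both thresholds, with edgeR (1460 genes higher, 1554 lower) and DESeq2 (1333 and 1501) on 5 libraries included. All settings reuse the values on which the members were chosen, so the unchanged member count is no support for their differences. Fitted log2 differences ran from -14.21 to -8.92 for Sox11, -8.76 to -3.48 for Sox13, -3.29 to -1.66 for Sox8, -0.7 to -0.64 for Sox4, -0.53 to -0.47 for Sox12 and 0.58 to 0.67 for Sox9. Short of the thresholds were Col9a3 (0.95 with pseudocount 5, 0.93 without GαqKO replicate 2) and Nanog (-0.98 with pseudocount 5, -1.29 with DESeq2); the cause was not tested. Deviations of same-numbered libraries from their group means were not positively correlated (-0.0453, -0.148 and -0.0638), which does not settle whether the replicate numbers pair the samples. With the replicate block 1421 genes rose, 1478 fell and the members stayed at 0 higher and 3 lower. Scaling moved the median log2 fold change of all genes from -0.0122 to at most 0.0219. Low counts limit the precision for Sox6, Sox8, Sox13 and Sox18.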
